A study of Mus musculus with 18 samples.

Results

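The genes described are 39 mouse genes of meiosis and the germline, measured as polyadenylated RNA in embryonic stem cells, the cultured pluripotent cells of the early embryo. They were chosen by name, with earlier results of these data known, and were matched by mouse Entrez identifier. All 39 were among the 36528 genes listed for each library. The study made 18 libraries in 6 groups of 3. In the RNF2-BAP1 double knockout (dKO) and the BAP1 knockout (KO), 100 nM 4-hydroxytamoxifen was given for 4 days to set off recombination by Cre. The untreated knockout line was the control of the KO. A line with a knock-in of the C91A form of BAP1 was measured with the drug (C91A mutant) and without it (untreated C91A line). Cells with wild-type BAP1 (WT) made up the last group. All 6 groups also received emricasan, a caspase inhibitor, so levels come from cells in which death by caspases was blocked. An untreated double-knockout line was not analysed here. Whether WT received 4-hydroxytamoxifen, which promoter drove Cre, how many clones were used and whether libraries came from separate cultures are not given in the sources used here. The effect of an allele therefore cannot be told apart from that of the drug and of Cre, and p-values measure the spread between these libraries, which may be technical.

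BAP1 is a deubiquitinase that removes the mono-ubiquitin mark from histone H2A, and C91A replaces its catalytic cysteine. RNF2, also called RING1B, is a ligase of Polycomb repressive complex 1 that adds this mark. One form of that complex, PRC1.6, holds PCGF6, L3MBTL2, E2F6 and the DNA-binding pair MGA and MAX, and is known in mouse embryonic stem cells for keeping germline genes silent. Those genes are normally used in germ cells, where they start meiosis, build the synaptonemal complex between paired chromosomes, recombine DNA, and make piRNAs, the small RNAs that silence transposons. Embryonic stem cells do not undergo meiosis, and the transcripts of these genes in them are usually scarce.

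Values are nRPKM, the authors' size-factor-adjusted RPKM (reads per kilobase, scaled to library size), which can be compared between genes since they are per length. Differences are log2 fold changes with standard errors (SE) from edgeR's quasi-likelihood test on counts, and a gene was called at an adjusted p under 0.05 over the 16875 genes tested. Libraries held 8.11 to 23.04 M counts (M, mega), and the KO libraries were the shallowest group, at 8.11 to 17.99 M. Replicates differed little, with a coefficient of variation between libraries, beyond counting noise, of 4.5%. Small differences therefore pass the test, and a large share of all genes is called. Of the 39 genes, 37 had enough reads to be tested. Spo11, which makes the DNA breaks that start recombination, had 2 reads in all 18 libraries, and Meiob had 55. Tdrd9, Asz1 and Figla passed only through the dKO libraries and so had to differ. The pluripotency genes were all detected, with mean Pou5f1 levels of 441 nRPKM in the C91A mutant to 729 nRPKM in the untreated knockout line. Rnf2 averaged 22 ± 1.03 nRPKM in dKO and 36.5 ± 2.28 nRPKM in KO cells (SD, n = 3 each), against 33.8 ± 2.19 nRPKM in WT. Bap1 averaged 42.7 nRPKM in dKO, 42.0 in KO, 47.1 in the untreated knockout line, 45.9 in the C91A mutant, 24.9 in the untreated C91A line and 49.7 in WT. These counts cover the whole gene, and whether a deleted part lies within the counted reads is not given, so they check the genotypes only in part.

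With RNF2 removed as well as BAP1, transcripts of the meiosis and germline genes were far more abundant than with BAP1 removed alone. Among the 37 genes tested, 34 were higher and 1, Cpeb1, was lower in dKO than in KO, where 32.6% of all genes were called higher and 30.6% lower. At least a 2-fold rise was seen for 28, against 13% of all genes tested, and the dKO range lay above the KO range for 34, against 33.5% of all genes. The median log2 fold change was 1.99 over the 37 genes and 0.034 over all genes tested. Since the genes were chosen with earlier results of these data known, these values describe the set and are no independent test of it. All of these counts and the median include Tdrd9, Asz1 and Figla, which had to differ. Leaving them out, 31 of 34 were called higher and 1 lower. The 2-fold count, the count of separate ranges and the median were not remade without them. In bulk libraries, more cells making a transcript and more transcript per cell cannot be told apart. The labels do not say whether the dKO line was derived from the KO line, so differences between the lines themselves cannot be told apart from the loss of RNF2. Summed over 12 primitive endoderm markers, the level was 78.9 to 84.5 nRPKM in dKO and 41.0 to 43.8 nRPKM in KO libraries. It was 85.3 to 88.5 nRPKM in WT, so KO was the low group of these. Of the 11 markers tested, 10 were higher in dKO than in KO. Summed over 10 pluripotency markers, the level was 2550 to 2740 nRPKM in dKO, 1950 to 2020 nRPKM in KO and 2510 to 2640 nRPKM in WT. Of these 10, 7 were higher and 2 lower in dKO than in KO. Fibroblast markers summed to 286 to 311 nRPKM in dKO, 496 to 517 nRPKM in KO and 208 to 218 nRPKM in WT. Of the 11 tested, 6 were higher in dKO than in KO and 4 lower. The part of these shifts in the germline result was not tested.

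**Figure D1:**
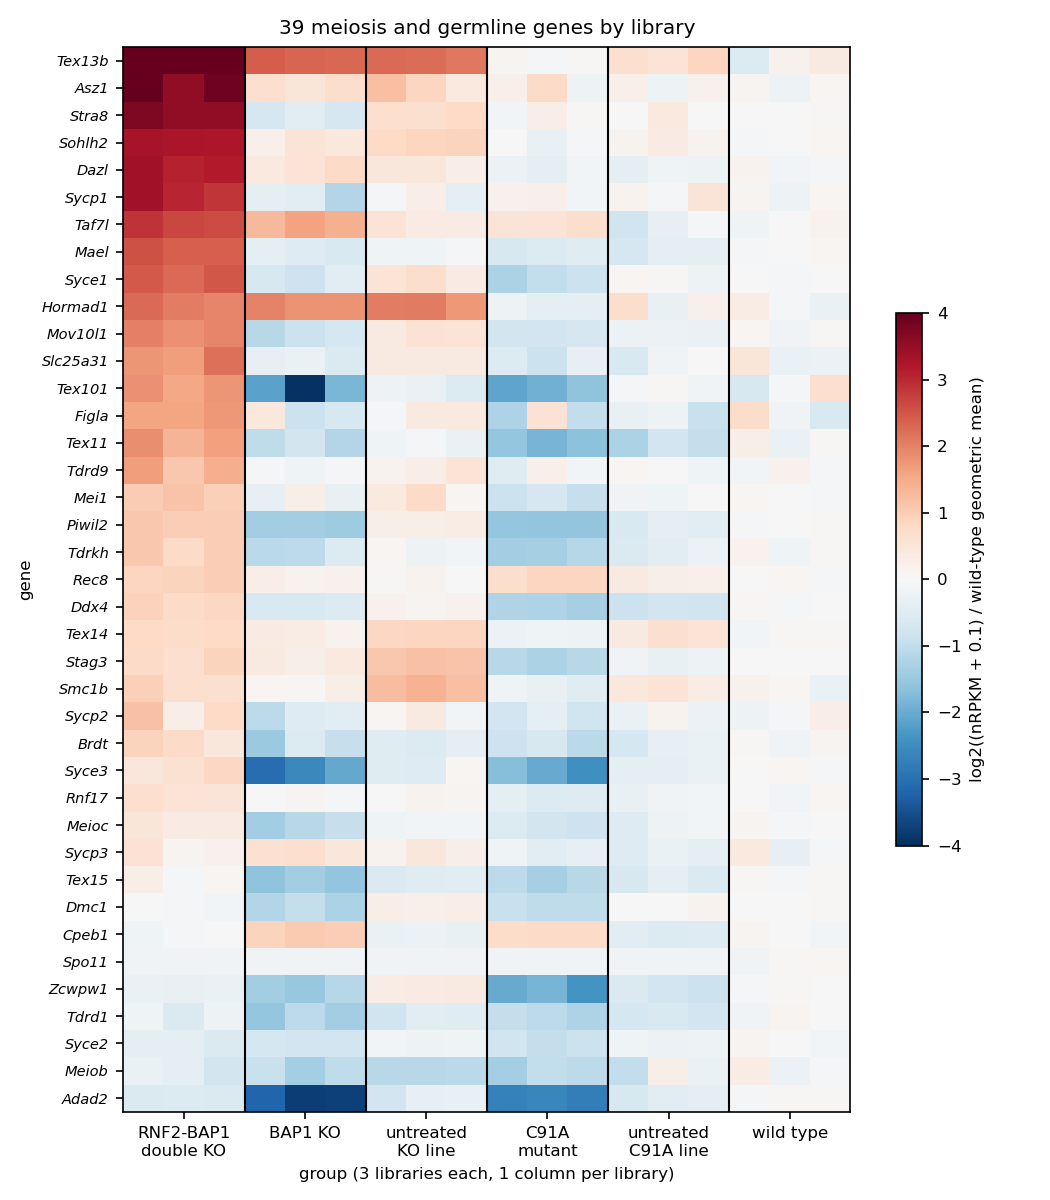
Heat map of the 39 genes (rows, ordered by their mean dKO colour value) in 18 libraries (columns, grouped as dKO, KO, untreated knockout line, C91A mutant, untreated C91A line and WT). Colour is log2 of nRPKM plus 0.1 over the WT geometric mean, with the scale ending at 4 and 4 cells past that limit; the dKO columns hold the strongest red, and the KO and C91A mutant columns are bluer than their untreated lines for most rows.

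Levels over the whole set were highest in dKO. In dKO cells 33 of the 39 genes had a mean of at least 1 nRPKM, against 24 in KO cells and 28 in WT. The untreated knockout line had 29, the C91A mutant 22 and the untreated C91A line 27. The median of the 39 gene means was 6.46 nRPKM in dKO and 1.96 nRPKM in KO, against 2.9 nRPKM in WT. For 27 genes the dKO group had the highest mean of the 6 groups. KO was highest for Sycp3 and Cpeb1, and the untreated knockout line for Tex14, Smc1b, Stag3, Dmc1 and Zcwpw1. WT was highest for Tdrd1, Adad2, Syce2 and the scarcely read Spo11 and Meiob. The same counts were not made over all genes, so these only describe the 39, with Tdrd9, Asz1 and Figla among them.

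Since the genes moved together, their promoters were read for letters known to be bound by PRC1.6 subunits. The MGA-MAX pair binds the E-box CACGTG, and E2F6 binds sites of the type TTCCCGC. Both strands were searched, where the second motif reads GCGGGAA if it lies on the other strand, and no site of one motif overlapped a site of the other. RefSeq windows on GRCm38.p6, reaching from 250 bases before to 50 bases after the annotated start, were at hand for 33 of the 39 genes. An E-box stood in windows of 15 of these 33 genes, or 45.5%, against 11.5% of the 12307 tested genes with a window and 8.09% of all 27025 genes with one. The E2F6-type letters stood in 9 of 33, or 27.3%, against 9.48% of tested genes and 5.29% of all. Member windows had a median CpG observed-to-expected ratio of 0.716, close to the 0.721 of tested genes and above the 0.384 of all. Within the set, the shares were not higher among the genes with large rises. An E-box was present in 10 of the 25 genes that were at least 2-fold higher in dKO than in KO (40.0%) and in 5 of the other 8 (62.5%), while the E2F6-type letters were in 3 of 25 (12.0%) and 6 of 8 (75.0%). The 25 include Tdrd9, Asz1 and Figla, which passed the filter through dKO alone and so had to differ. Of these only Tdrd9 holds an E-box, and the shares were not remade without them. These are descriptions of letters, not of binding, which was not measured here.

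Windows of the 6 genes with the largest dKO over KO fold that hold either motif are shown, 5′ to 3′ on the strand of the gene, with motif letters in capitals. The E-box lay 94 bases before the start in Sycp1, at 165 and 95 before it in Tdrd9, and 20 and 29 bases after it in Adad2. Tdrd9 passed the filter through dKO alone.
Sycp1, chr3:102936051-102936350, minus strand: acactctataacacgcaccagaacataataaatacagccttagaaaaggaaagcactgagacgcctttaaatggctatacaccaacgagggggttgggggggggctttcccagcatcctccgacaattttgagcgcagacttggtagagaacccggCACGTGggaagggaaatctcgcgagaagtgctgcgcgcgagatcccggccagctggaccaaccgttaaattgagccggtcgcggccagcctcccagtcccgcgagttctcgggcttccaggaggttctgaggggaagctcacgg
Adad2, chr8:119612463-119612762, plus strand: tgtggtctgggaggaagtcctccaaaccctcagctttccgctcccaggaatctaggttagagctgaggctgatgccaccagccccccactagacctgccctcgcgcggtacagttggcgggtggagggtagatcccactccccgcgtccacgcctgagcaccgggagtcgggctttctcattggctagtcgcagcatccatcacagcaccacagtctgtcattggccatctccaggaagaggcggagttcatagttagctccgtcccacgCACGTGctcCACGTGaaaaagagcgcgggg
Tdrd9, chr12:111971309-111971608, plus strand: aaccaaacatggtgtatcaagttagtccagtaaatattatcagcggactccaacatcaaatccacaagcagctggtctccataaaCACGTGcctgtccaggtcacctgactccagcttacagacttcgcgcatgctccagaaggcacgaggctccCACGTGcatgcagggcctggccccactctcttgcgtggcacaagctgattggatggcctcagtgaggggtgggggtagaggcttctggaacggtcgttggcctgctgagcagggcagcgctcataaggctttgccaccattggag
Mael, chr1:166238695-166238994, minus strand: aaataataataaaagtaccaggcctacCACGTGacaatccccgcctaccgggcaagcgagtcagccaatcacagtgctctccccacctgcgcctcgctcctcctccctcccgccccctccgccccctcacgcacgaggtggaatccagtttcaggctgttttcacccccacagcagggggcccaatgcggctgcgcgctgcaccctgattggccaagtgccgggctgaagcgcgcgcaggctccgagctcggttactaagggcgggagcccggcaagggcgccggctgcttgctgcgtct
Mov10l1, chr15:88982744-88983043, plus strand: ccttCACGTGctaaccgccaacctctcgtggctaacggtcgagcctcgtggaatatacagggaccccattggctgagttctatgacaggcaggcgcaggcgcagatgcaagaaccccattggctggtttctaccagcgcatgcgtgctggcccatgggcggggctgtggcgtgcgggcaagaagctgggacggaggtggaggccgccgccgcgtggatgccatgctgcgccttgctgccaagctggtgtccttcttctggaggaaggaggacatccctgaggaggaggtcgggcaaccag
Slc25a31, chr3:40708621-40708920, plus strand: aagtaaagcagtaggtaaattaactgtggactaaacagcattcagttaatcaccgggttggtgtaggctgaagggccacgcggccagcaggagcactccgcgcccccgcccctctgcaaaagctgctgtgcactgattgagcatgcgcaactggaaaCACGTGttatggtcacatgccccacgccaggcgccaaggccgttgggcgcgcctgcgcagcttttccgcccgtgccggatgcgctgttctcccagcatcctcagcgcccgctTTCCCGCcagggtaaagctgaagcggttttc
For contrast, 2 windows with E-boxes and E2F6-type letters are shown of genes that were not called between dKO and KO, Hormad1 and Sycp3; this pair was chosen after its values were seen.
Hormad1, chr3:95559427-95559726, plus strand: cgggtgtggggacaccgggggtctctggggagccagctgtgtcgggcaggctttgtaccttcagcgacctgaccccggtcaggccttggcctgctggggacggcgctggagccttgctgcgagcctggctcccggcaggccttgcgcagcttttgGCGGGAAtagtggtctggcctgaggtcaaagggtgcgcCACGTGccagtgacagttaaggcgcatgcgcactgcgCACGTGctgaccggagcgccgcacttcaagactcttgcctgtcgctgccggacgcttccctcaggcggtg
Sycp3, chr10:88459337-88459636, plus strand: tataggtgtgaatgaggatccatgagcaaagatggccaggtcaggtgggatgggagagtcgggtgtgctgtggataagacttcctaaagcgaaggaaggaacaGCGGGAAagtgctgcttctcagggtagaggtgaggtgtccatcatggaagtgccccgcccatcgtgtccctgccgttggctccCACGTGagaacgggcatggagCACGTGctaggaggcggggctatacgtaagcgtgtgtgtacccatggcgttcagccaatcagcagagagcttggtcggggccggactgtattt
The windows of Stra8, Tex101, Asz1, Dazl and Sohlh2, all among the genes with large rises, hold neither set of letters.

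**Figure D2:**
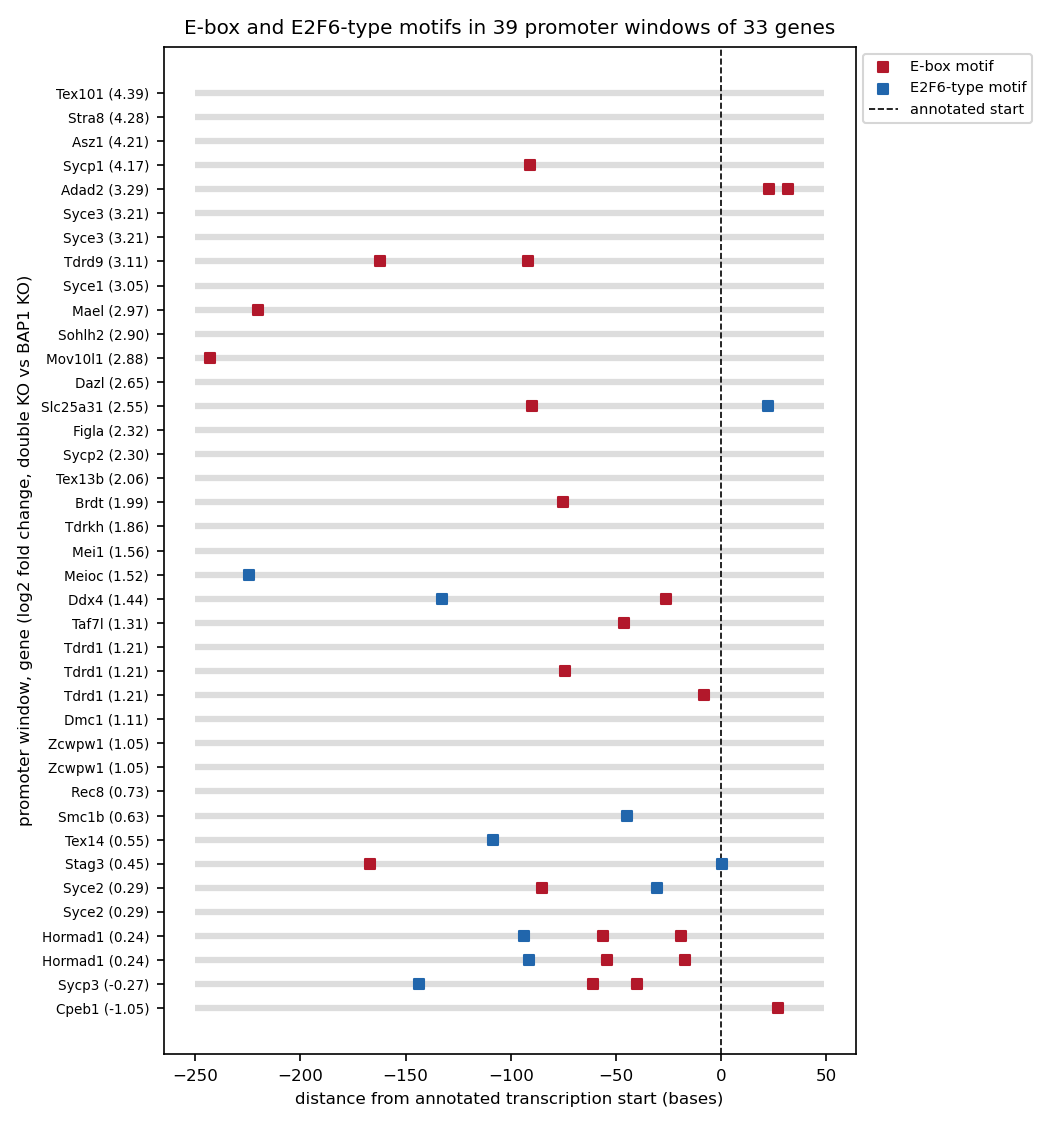
Position of E-box and E2F6-type letters relative to the annotated start (x axis, bases) in 39 promoter windows of 33 genes (rows). Sites of both kinds are scattered over the window, and Hormad1 and Sycp3 each hold 2 E-boxes and 1 E2F6-type site.

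Of the 8 tested genes that start meiosis and regulate germ cells, 7 were higher in dKO than in KO and 1 lower, and 7 were higher in dKO than in WT. Without Figla, which passed the filter through dKO alone, 6 of 7 were higher and 1 lower than in KO, and 6 of 7 were higher than in WT. In dKO, 32.6% of all genes were called higher and 30.6% lower than in KO, and 26.2% and 27.1% than in WT. Both comparisons use the same dKO libraries, so their values are given side by side and are not independent. Stra8, the retinoic acid-induced factor of meiotic entry, had 39.5, 34.7 and 34.9 nRPKM in dKO and 1.8, 2.13 and 1.79 in KO libraries, against 2.89, 2.84 and 2.97 in WT. Every dKO library was above every KO and WT library, with log2 fold changes of 4.28 (SE 0.12, adjusted p = 1.5e-28) over KO and 3.64 (SE 0.1, adjusted p = 3.2e-29) over WT. Sohlh2, a basic helix-loop-helix factor of spermatogonia and oocytes, had 42.0, 40.9 and 39.7 nRPKM in dKO and 4.78, 6.14 and 5.63 in KO, against 3.97, 4.17 and 4.36 in WT. The dKO libraries were again apart from the rest, with log2 fold changes of 2.9 (SE 0.08) over KO and 3.28 (SE 0.08) over WT. Dazl, an RNA-binding protein that germ cells need, had 20.1, 16.6 and 18 nRPKM in dKO and 2.49, 2.78 and 3.3 in KO, against 2.1, 1.75 and 1.83 in WT. Its log2 fold changes were 2.65 (SE 0.1) over KO and 3.27 (SE 0.09) over WT. Taf7l, the germ-cell form of a subunit of the general transcription factor TFIID, had 21.6, 18.5 and 17.8 nRPKM in dKO and 7.05, 8.93 and 7.69 in KO, against 2.52, 2.87 and 3.14 in WT. Here KO stood between dKO and WT, with log2 fold changes of 1.31 (SE 0.1) for dKO over KO and 2.74 (SE 0.11) for dKO over WT.

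Scarcer regulators rose with them. Figla, a transcription factor of oocytes, averaged 0.963 nRPKM in dKO and 0.191 in KO, against 0.272 in WT. Its log2 fold changes of 2.32 (SE 0.52) over KO and 1.86 (SE 0.41) over WT rest on few reads, and became 3.07 without KO library 1 and 2.47 without WT library 1. Brdt, the testis-specific bromodomain protein, averaged 1.08 nRPKM in dKO and 0.279 in KO, against 0.624 in WT. Meioc, which holds germ cells in meiotic prophase, averaged 6.46 nRPKM in dKO and 2.22 in KO, against 4.95 in WT. Both were called higher in dKO, Brdt by 1.99 (SE 0.23) over KO and 0.77 (SE 0.18) over WT on the log2 scale, and Meioc by 1.52 (SE 0.1) and 0.38 (SE 0.09). Cpeb1, which binds RNAs stored for cytoplasmic polyadenylation in oocytes, went the other way, with 4.19, 4.55 and 4.73 nRPKM in dKO and 8.85, 9.92 and 9.44 in KO, against 5.11, 4.67 and 4.36 in WT. The dKO libraries were below all KO libraries (log2 fold change -1.05, SE 0.08, adjusted p = 3.6e-14) and overlapped WT, log2 fold change -0.07 (SE 0.09, adjusted p = 0.52).

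**Figure D3:**
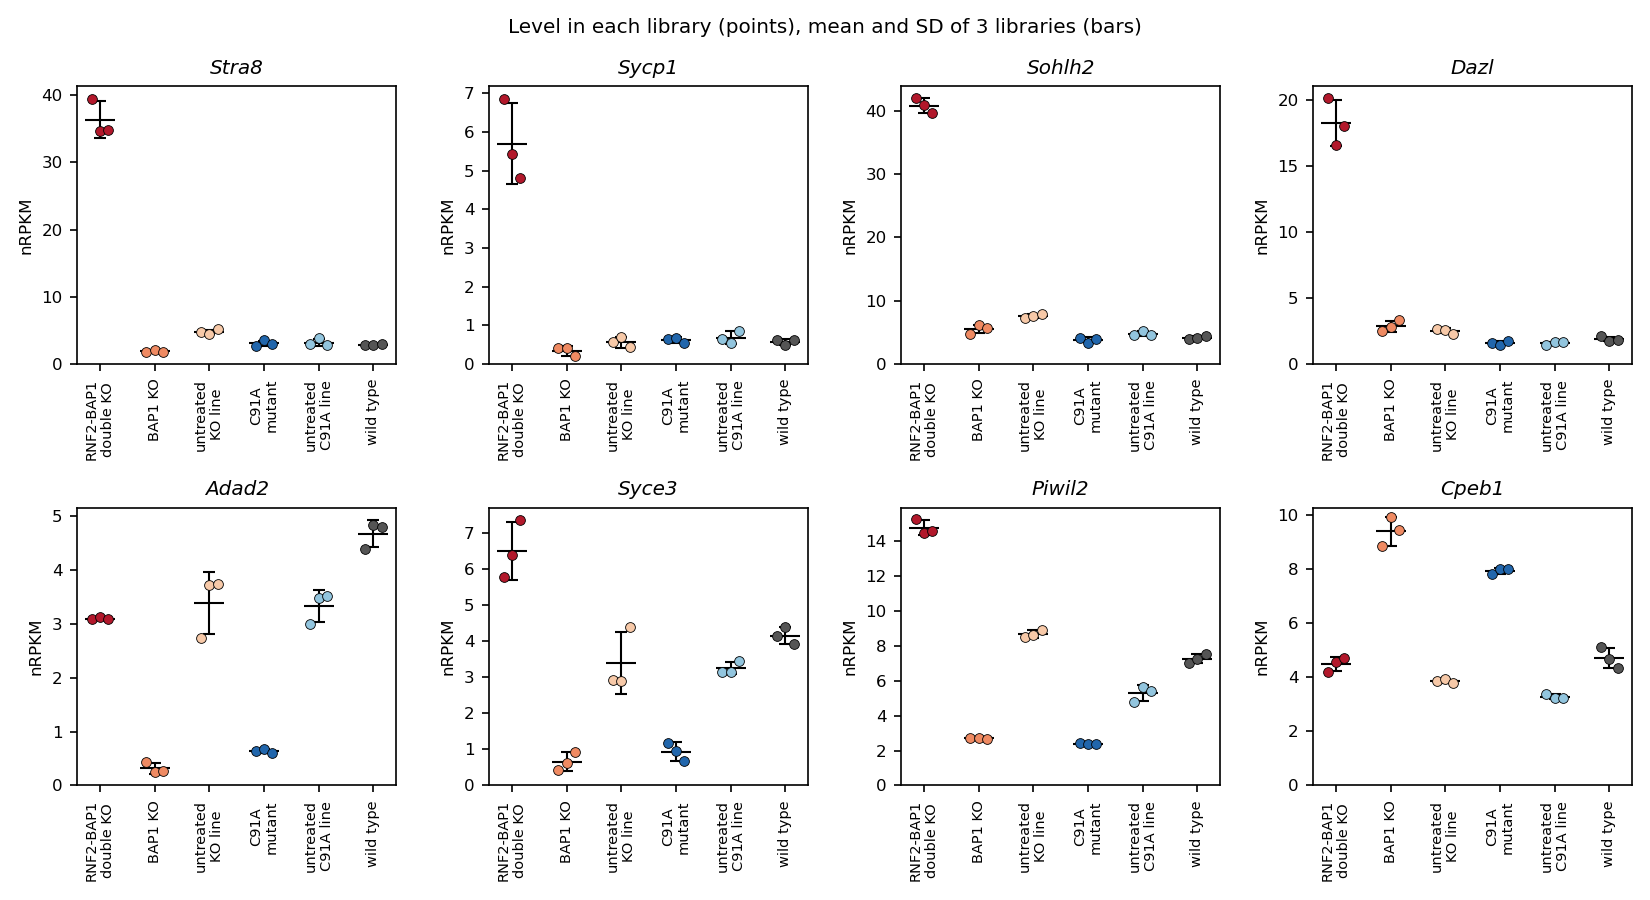
Levels in nRPKM (y axis) of Stra8, Sycp1, Sohlh2, Dazl, Adad2, Syce3, Piwil2 and Cpeb1, 1 panel each, in 6 groups along x (dKO, KO, untreated knockout line, C91A mutant, untreated C91A line, WT). Points are libraries and bars the mean and SD of 3; Stra8, Sycp1, Sohlh2 and Dazl stand high in dKO alone, whereas Adad2 is also high in both untreated lines and WT, and Cpeb1 is high in KO and the C91A mutant.

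Among genes of the chromosome axis and synaptonemal complex, 8 of 10 were higher in dKO than in KO, against 32.6% of all genes. The other 2, Hormad1 and Sycp3, were not called. Against WT 8 were higher and 1 lower, beside 26.2% and 27.1% of all genes. Sycp1, the transverse filament of the synaptonemal complex, had 6.86, 5.44 and 4.81 nRPKM in dKO and 0.413, 0.405 and 0.2 in KO, against 0.627, 0.492 and 0.618 in WT. The groups were wide apart, with log2 fold changes of 4.17 (SE 0.21, adjusted p = 1.8e-20) over KO and 3.29 (SE 0.16, adjusted p = 1.7e-20) over WT. Syce1, a central element protein, had 26.6, 23.3 and 27.2 nRPKM in dKO and 3.0, 2.62 and 3.49 in KO, against 4.85, 4.64 and 4.83 in WT. Its log2 fold changes were 3.05 (SE 0.12) over KO and 2.43 (SE 0.1) over WT. Syce3, another central element protein, had 5.77, 6.39 and 7.36 nRPKM in dKO and 0.419, 0.616 and 0.936 in KO, against 4.15, 4.39 and 3.91 in WT. For Syce3 most of the contrast with KO lay in the low KO level: the log2 fold change was 3.21 (SE 0.31) over KO and 0.66 (SE 0.19) over WT. Sycp2, a lateral element protein, was scarce, with 0.507, 0.227 and 0.372 nRPKM in dKO and 0.0298, 0.0874 and 0.0997 in KO, against 0.135, 0.156 and 0.228 in WT. It was higher in dKO than in KO by 2.3 (SE 0.4) on the log2 scale, whereas the dKO and WT ranges met, and the call over WT (1.08, SE 0.3) was lost with libraries thinned to equal depth (adjusted p = 0.067).

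The remaining axis and synapsis genes differed less between dKO and KO. Rec8, the meiotic cohesin kleisin, averaged 38.8 nRPKM in dKO and 23.5 in KO, against 20.5 in WT, a log2 fold change of 0.73 (SE 0.06) over KO. Stag3, a meiotic cohesin subunit, averaged 25.9 nRPKM in dKO and 19.0 in KO, against 15 in WT, a log2 fold change of 0.45 (SE 0.06) over KO. Smc1b, the meiotic form of a core cohesin subunit, rose by 0.63 (SE 0.13) over KO and 0.77 (SE 0.12) over WT on the log2 scale. Syce2, a central element protein and one of the most abundant members, averaged 53.4 nRPKM in dKO and 43.4 in KO, against 72.4 in WT. It was thus higher than KO (0.29, SE 0.06) and lower than WT (-0.45, SE 0.06). Hormad1, which marks unsynapsed axes, had 7.17, 6.13 and 5.71 nRPKM in dKO and 5.8, 5.1 and 5.09 in KO, against 1.76, 1.36 and 1.14 in WT. The dKO and KO ranges met (log2 fold change 0.24, SE 0.14, adjusted p = 0.13), and both were above WT, by 2.15 (SE 0.16) for dKO. Sycp3, the main lateral element protein, had 19.7, 14.2 and 14.7 nRPKM in dKO and 20.2, 21.2 and 17.9 in KO, against 17.3, 10.4 and 12.6 in WT. It was called in neither comparison, at -0.27 on the log2 scale (SE 0.13, adjusted p = 0.06) against KO, and 0.27 (SE 0.12, adjusted p = 0.062) against WT. Against KO it passed without dKO library 1 (adjusted p = 0.0049) or KO library 3 (adjusted p = 0.039), and with no filter on low counts (adjusted p = 0.017). Against WT it passed without dKO libraries 2 (adjusted p = 0.03) or 3 (adjusted p = 0.039) or WT library 1 (adjusted p = 0.00092). Without that filter, which then left 27292 genes tested, 34 of the 39 genes were higher and 2 lower in dKO than in KO, against 21.1% and 18.7% of all. Sycp3 overlaps Chpt1 on the opposite strand, and whether counting used the strand is not given.

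The 5 tested recombination genes were all higher in dKO than in KO, against 32.6% of all genes. Against WT 2 were higher and 1 lower, beside 26.2% and 27.1% of all genes. The counts against WT are near those shares, so nothing is read from them about these genes as a group. Tex11, an X-linked crossover gene, averaged 6.67 nRPKM in dKO and 1.02 in KO, against 2.11 in WT, with log2 fold changes of 2.76 (SE 0.15) over KO and 1.66 (SE 0.12) over WT. Mei1, needed for making meiotic DNA breaks, had 0.588, 0.636 and 0.552 nRPKM in dKO and 0.166, 0.298 and 0.173 in KO, against 0.257, 0.23 and 0.224 in WT. It rose over KO by 1.56 (SE 0.29) and over WT by 1.3 (SE 0.24) on the log2 scale. Dmc1, the meiotic strand-exchange protein, had 10.9, 10.4 and 10.3 nRPKM in dKO and 4.8, 5.7 and 4.49 in KO, against 10.8, 11 and 11.3 in WT. Its dKO level overlapped that of WT (log2 fold change -0.07, SE 0.07, adjusted p = 0.42) and was above KO by 1.11 (SE 0.09). Zcwpw1, a reader of histone methylation at recombination sites, had 8.67, 8.41 and 8.76 nRPKM in dKO and 3.96, 3.62 and 4.64 in KO, against 10, 10.9 and 10.5 in WT. It was higher than KO by 1.05 (SE 0.1) and lower than WT (-0.29, SE 0.08, adjusted p = 0.003); it overlaps Pilra on the opposite strand. Tex15, with roles in recombination and in silencing guided by piRNAs, averaged 3.88 nRPKM in dKO and 1.19 in KO, against 3.61 in WT. The rise over KO was 1.73 (SE 0.1), and the difference from WT was 0.1 (SE 0.08, adjusted p = 0.29). Meiob, untested, had 10 reads in dKO and 2 in KO, a ratio of 3.29 with a 95% exact counting interval of 0.7 to 30.8.

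All 9 piRNA pathway and germ granule genes were higher in dKO than in KO, against 32.6% of all genes. Of them, 8 were higher and 1 lower in dKO than in WT, beside 26.2% and 27.1% of all genes. Without Asz1 and Tdrd9, which passed the filter through dKO alone, 7 of 7 were higher than in KO, and 6 were higher and 1 lower than in WT. Mael, a piRNA pathway protein, was the most abundant of them in dKO, at 52.2, 46.5 and 46.7 nRPKM. It had 6.8, 6.19 and 5.76 nRPKM in KO, against 8.42, 8.77 and 9.22 in WT. The dKO libraries were apart from all others, with log2 fold changes of 2.97 (SE 0.09, adjusted p = 4.9e-28) over KO and 2.45 (SE 0.08, adjusted p = 1.5e-27) over WT. Mov10l1, the helicase that feeds precursors into the piRNA pathway, had 13.0, 11.4 and 12.3 nRPKM in dKO and 1.38, 1.67 and 1.87 in KO, against 3.33, 2.79 and 3.25 in WT. It rose by 2.88 (SE 0.1) over KO and 1.97 (SE 0.08) over WT. Piwil2, a PIWI protein that carries piRNAs, had 15.3, 14.5 and 14.6 nRPKM in dKO and 2.72, 2.74 and 2.66 in KO, against 7.02, 7.27 and 7.52 in WT. WT stood between dKO and KO, and the log2 fold changes were 2.45 (SE 0.07) over KO and 1.02 (SE 0.06) over WT. Ddx4, the helicase of germ granules also called mouse vasa homolog, had 27.0, 24.6 and 25.7 nRPKM in dKO and 9.4, 9.37 and 9.76 in KO, against 15, 13.6 and 14.4 in WT. Its log2 fold changes were 1.44 (SE 0.06) over KO and 0.84 (SE 0.06) over WT.

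Asz1, a protein of the germ-cell mitochondrial surface where piRNAs are made, was nearly unread outside dKO. It had 58, 36 and 82 reads in dKO and 2, 1 and 3 in KO, against 1, 0 and 1 in WT. The ratio of summed reads, scaled for depth, was 19.3 over KO (95% exact counting interval 8.68 to 53.2) and 101.0 over WT (27.6 to 842.0). Tdrd9, a Tudor-domain helicase, had 29, 15 and 38 reads in dKO and 2, 1 and 3 in KO, against 3, 7 and 4 in WT. Its ratios were 8.98 over KO (3.95 to 25.2) and 6.73 over WT (3.79 to 12.9), and these intervals cover counting error only. Tdrkh, a Tudor protein that overlaps Oaz3 on the opposite strand, rose by 1.86 (SE 0.15) over KO and 0.98 (SE 0.12) over WT on the log2 scale. Rnf17, a Tudor and RING protein of germ granules, averaged 24.1 nRPKM in dKO and 16.5 in KO, against 16 in WT, with log2 fold changes of 0.56 (SE 0.06) and 0.58 (SE 0.06). Tdrd1, a Tudor scaffold of germ granules, was higher in dKO than in KO by 1.21 (SE 0.18) and lower than in WT (-0.33, SE 0.14, adjusted p = 0.038). That last call was lost without dKO library 2 (adjusted p = 0.21), WT library 2 (adjusted p = 0.14) or WT library 3 (adjusted p = 0.076).

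The other testis genes were all higher in dKO than in KO, 5 of 5, against 32.6% of all genes. In dKO 4 were higher and 1 lower than in WT, beside 26.2% and 27.1% of all genes. Tex101, a glycoprotein of the germ cell surface, had 5.38, 4.43 and 5.13 nRPKM in dKO and 0.247, 0.0 and 0.331 in KO, against 0.9, 1.4 and 2.35 in WT. The summed reads were 294 in dKO and 9 in KO, a depth-scaled ratio of 21.5 (95% exact counting interval 11.2 to 47.4). Its fitted log2 fold change over KO was 4.39 (SE 0.37) and became 5.03 without KO library 3. Tex13b, an X-linked testis gene, had 12.9, 12.0 and 15.1 nRPKM in dKO and 3.41, 3.14 and 3.11 in KO, against 0.349, 0.635 and 0.737 in WT. KO and WT were themselves far apart, and the log2 fold changes were 2.06 (SE 0.12) over KO and 4.51 (SE 0.15) over WT. Adad2, a double-stranded RNA-binding protein of the testis, had 3.08, 3.13 and 3.08 nRPKM in dKO and 0.433, 0.254 and 0.261 in KO, against 4.38, 4.83 and 4.8 in WT. The large difference from KO (3.29, SE 0.24) thus came with a level below WT (-0.6, SE 0.13, adjusted p = 9.8e-05). Slc25a31, the ADP/ATP carrier of sperm and germ cells, rose by 2.55 (SE 0.25) over KO and 2.01 (SE 0.2) over WT. Tex14, needed for the bridges between germ cells, rose by 0.55 (SE 0.07) over KO and 0.79 (SE 0.07) over WT.

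Set against WT, the double knockout had 29 of the 37 tested genes higher and 4 lower, where 26.2% of all genes were called higher and 27.1% lower. At least 2-fold higher were 19, against 6.39% of all genes. The 4 lower genes were Adad2, Syce2, Tdrd1 and Zcwpw1, with log2 fold changes of -0.29 to -0.6. The median log2 fold change was 1.02 over the 37 genes and 0.006 over all genes tested. This median and the 19 include Tdrd9, Asz1 and Figla, which passed the filter through dKO alone, and were not remade without them. Without Tdrd9, Asz1 and Figla, 26 of 34 were higher and 4 lower. In the untreated knockout line, 16 of the 37 were also higher than in WT and 6 lower. Hormad1, Smc1b, Stag3 and Tex14 were higher there by 2.02, 1.32, 1.13 and 0.86 on the log2 scale, against 2.15, 0.77, 0.78 and 0.79 in dKO. Of the markers, 3 primitive endoderm ones were higher and 2 lower in dKO than in WT, 8 and 1 fibroblast ones, and 5 and 3 pluripotency ones. The part of these differences in the result was not tested.

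**Figure D4:**
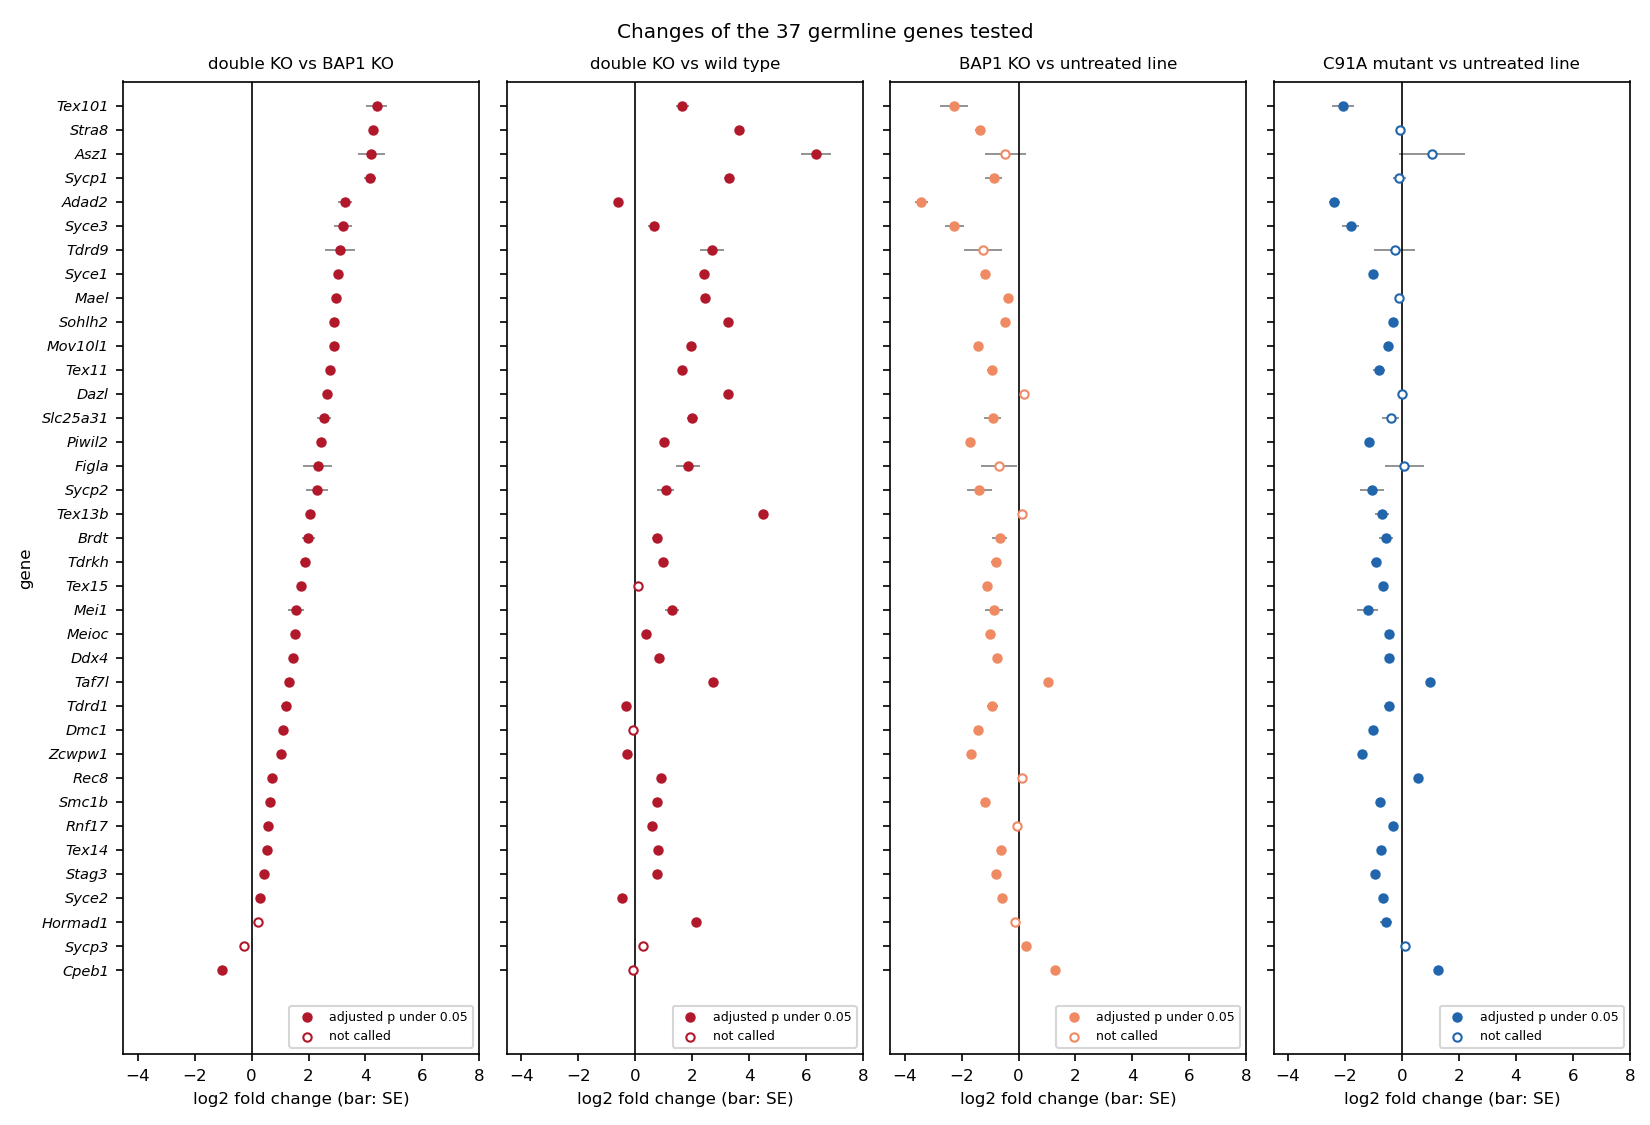
Log2 fold changes with SE (x axis) of the 37 tested genes (rows) in 4 comparisons (dKO over KO, dKO over WT, KO over its untreated line, C91A mutant over its untreated line); filled points passed an adjusted p under 0.05. In the first panel 34 points are filled to the right of 0 and 1 to the left, and in the allele panels 26 and 25 are filled to the left.

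Most of the germline genes were lower in KO cells and in C91A mutant cells than in their untreated lines. In KO, 26 of 37 were lower and 3 higher, where 30.3% of all genes were called lower and 31.3% higher, and 12 fell at least 2-fold, against 10.5% of all genes. In the C91A mutant, 25 of 37 were lower and 3 higher, where 26.4% of all genes were called lower and 28.6% higher, and 9 fell at least 2-fold, against 6.36% of all genes. Median log2 fold changes were -0.86 in KO and -0.55 in the C91A mutant, beside -0.006 and -0.007 over all genes tested. The KO libraries are the same ones that stand in the comparison with dKO, so their low levels enter both results. Leaving out Tdrd9, Asz1 and Figla, 26 of 34 were lower in KO and 25 of 34 in the C91A mutant. In these comparisons the summed pluripotency markers were 1950 to 2020 nRPKM in KO and 2710 to 2820 in its untreated line, and 1700 to 1770 nRPKM in the C91A mutant and 2400 to 2690 in its untreated line. Fibroblast markers, which include genes that differentiating cells also use, summed to 496 to 517 nRPKM in KO and 240 to 255 in its untreated line, and to 328 to 337 nRPKM in the C91A mutant and 220 to 230 in its untreated line. Lum was under 0.1 nRPKM in every library. Of the 11 fibroblast markers tested, 6 were higher and 0 lower in KO, and 8 were higher and 1 lower in the C91A mutant. Primitive endoderm markers summed to 41.0 to 43.8 nRPKM in KO and 24.4 to 26.3 in its untreated line, and to 116 to 121 nRPKM in the C91A mutant and 63.8 to 68.3 in its untreated line. Of the 11 primitive endoderm markers tested, 7 were higher and 0 lower in KO, and 4 were higher and 2 lower in the C91A mutant. Of the 10 pluripotency markers, 1 was higher and 8 lower in KO, and 1 was higher and 9 lower in the C91A mutant. The part of these shifts in the fall of the germline genes was not tested.

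The comparisons of the 2 alleles share no library. Lower in both were 22 genes, which is 84.6% of those lower in KO and 88.0% of those lower in the C91A mutant. Over all genes, 3265 were lower in both, 63.9% and 73.3% of the lower genes of KO and of the C91A mutant.  Taf7l and Cpeb1 were higher in both. Stra8, Sycp1, Mael and Slc25a31 were called lower in KO only, and Tex13b, Hormad1 and Rnf17 in the C91A mutant only, although the difference between the alleles was itself called only for Stra8, Tex13b and Rnf17 among these 7. For Hormad1 the difference passed without untreated C91A library 2 (0.73, adjusted p = 0.029).

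**Figure D5:**
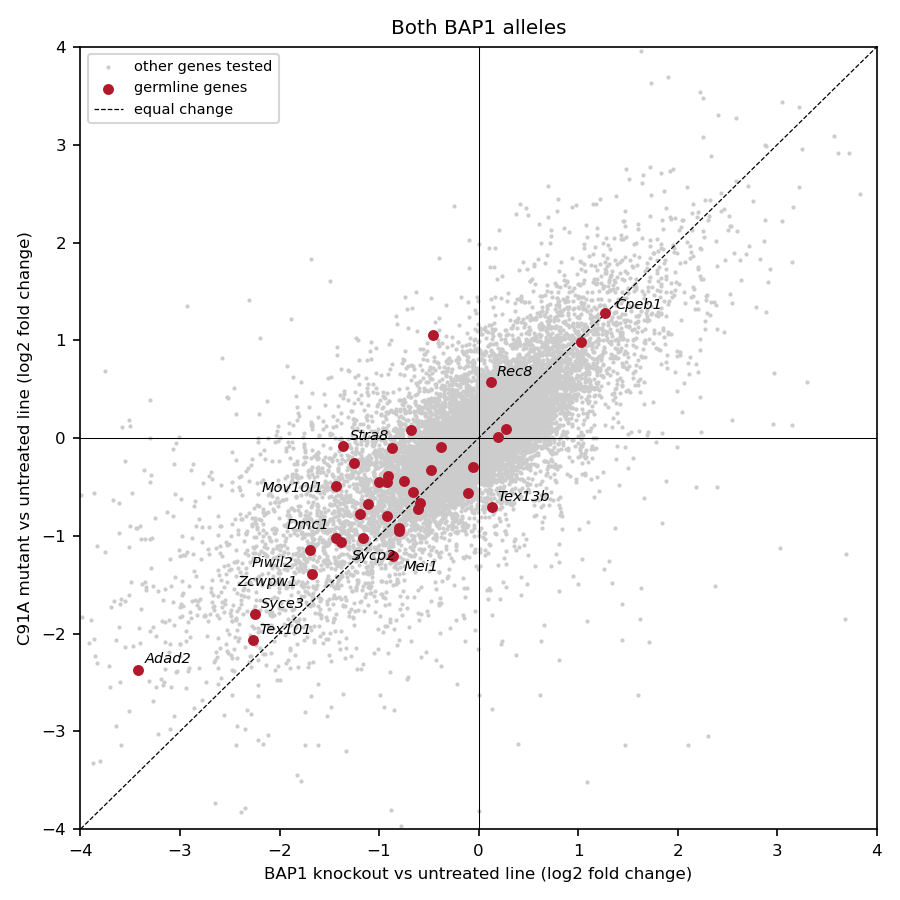
Log2 fold change in KO over its untreated line (x axis) against that in the C91A mutant over its untreated line (y axis); germline genes are coloured and labelled in part, and all other tested genes are grey, with 67 genes beyond the plotted range, which ends at 4 on either side of 0. Most germline genes lie at the lower left, with Adad2 farthest out, and Taf7l and Cpeb1 in the upper right.

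Among regulators, Stra8 separated the alleles. It had 1.8, 2.13 and 1.79 nRPKM in KO and 4.72, 4.53 and 5.15 in the untreated knockout line, log2 fold change -1.36 (SE 0.16, adjusted p = 6.2e-10). The C91A mutant had 2.71, 3.5 and 3.0 nRPKM and its untreated line 2.93, 3.8 and 2.86, ranges that overlap (-0.08, SE 0.14, adjusted p = 0.64). Sohlh2 fell by less, by 0.48 (SE 0.09) in KO and 0.33 (SE 0.1) in the C91A mutant on the log2 scale; the mutant's call was lost without C91A mutant library 2 (adjusted p = 0.055), without untreated library 2 (adjusted p = 0.072) and at equal depth (adjusted p = 0.14). Dazl was called in neither allele, with 0.2 (adjusted p = 0.14) in KO and 0.01 in the C91A mutant, although the KO value passed without KO library 1 (0.3, adjusted p = 0.047). Meioc fell by 1.0 (SE 0.11) in KO and by 0.45 (SE 0.1) in the C91A mutant. Taf7l had 7.05, 8.93 and 7.69 nRPKM in KO and 4.17, 3.56 and 3.62 in its untreated line, and 4.06, 4.22 and 4.63 in the C91A mutant and 1.6, 2.24 and 2.74 in its untreated line. It rose in both, by 1.03 (SE 0.12) in KO and 0.98 (SE 0.14) in the C91A mutant, a difference of 0.06 (SE 0.19, adjusted p = 0.87). Cpeb1 had 8.85, 9.92 and 9.44 nRPKM in KO and 3.87, 3.95 and 3.79 in its untreated line, and 7.82, 8.01 and 7.99 in the C91A mutant and 3.38, 3.22 and 3.25 in its untreated line. Its rise was 1.27 (SE 0.08) in KO and 1.28 (SE 0.09) in the C91A mutant, with a difference of -0.02 (SE 0.12, adjusted p = 0.94). Brdt fell by 0.66 (SE 0.26, adjusted p = 0.028) in KO and by 0.55 (SE 0.24, adjusted p = 0.048) in the C91A mutant, with overlapping ranges. The KO call was lost without KO libraries 1 (adjusted p = 0.21) or 3 (adjusted p = 0.068) or untreated library 3 (adjusted p = 0.063), and the mutant's without its libraries 1 (adjusted p = 0.072) or 3 (adjusted p = 0.21) or untreated libraries 2 (adjusted p = 0.15) or 3 (adjusted p = 0.13).

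Of the axis and synapsis genes, 7 of 10 fell and 1 rose in each allele, where 30.3% of all genes were lower in KO and 26.4% in the C91A mutant. Syce3 fell most: it had 0.419, 0.616 and 0.936 nRPKM in KO and 2.92, 2.89 and 4.4 in its untreated line, and 1.19, 0.947 and 0.679 in the C91A mutant and 3.15, 3.16 and 3.44 in its untreated line. Treated and untreated libraries did not overlap in either line, with log2 fold changes of -2.25 (SE 0.34, adjusted p = 2.3e-07) in KO and -1.8 (SE 0.3, adjusted p = 2.2e-06) in the C91A mutant. Syce1 had 3.0, 2.62 and 3.49 nRPKM in KO and 7.08, 7.82 and 5.98 in its untreated line, and 1.92, 2.38 and 2.59 in the C91A mutant and 5.06, 4.93 and 4.15 in its untreated line. It fell by 1.16 (SE 0.13) in KO and 1.02 (SE 0.14) in the C91A mutant. Smc1b, Stag3 and Syce2 fell in both as well, by 0.59 to 1.19 in KO and 0.66 to 0.95 in the C91A mutant on the log2 scale. Sycp2 had 0.0298, 0.0874 and 0.0997 nRPKM in KO and 0.188, 0.246 and 0.148 in its untreated line, and 0.0578, 0.112 and 0.0543 in the C91A mutant and 0.123, 0.196 and 0.129 in its untreated line. The fall was 1.38 (SE 0.44) in KO and 1.06 (SE 0.43) in the C91A mutant, at adjusted p of 0.0063 and 0.036, and it rests on few reads: the KO call was lost without KO library 1 (adjusted p = 0.059), and the mutant's without its libraries 1 (adjusted p = 0.1) or 3 (adjusted p = 0.15) or untreated library 2 (adjusted p = 0.22). Sycp1 had 0.413, 0.405 and 0.2 nRPKM in KO and 0.558, 0.711 and 0.429 in its untreated line. It fell by 0.87 (SE 0.29, adjusted p = 0.01), a call lost without KO library 3 (adjusted p = 0.22) or untreated library 2 (adjusted p = 0.068). The rises were Sycp3 in KO and Rec8 in the C91A mutant. Rec8 averaged 36.0 nRPKM in the C91A mutant and 24.4 in its untreated line, a log2 fold change of 0.57 (SE 0.06). In KO its value was 0.12 (adjusted p = 0.097), which passed without untreated library 2 (adjusted p = 0.044). Sycp3 passed narrowly (0.28, SE 0.12, adjusted p = 0.048) and lost its call without any of KO libraries 1 (adjusted p = 0.12) and 2 (adjusted p = 0.14) and untreated libraries 1 (adjusted p = 0.19) and 3 (adjusted p = 0.1). Hormad1 fell by 0.56 (SE 0.22, adjusted p = 0.03) in the C91A mutant, a call lost without its libraries 2 (adjusted p = 0.074) or 3 (adjusted p = 0.083) or untreated libraries 1 (adjusted p = 0.33) or 3 (adjusted p = 0.055).

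All 5 tested recombination genes fell in both alleles, where 30.3% of all genes were lower in KO and 26.4% in the C91A mutant. Zcwpw1 had 3.96, 3.62 and 4.64 nRPKM in KO and 12.8, 13.3 and 13.5 in its untreated line, and 2.51, 2.84 and 1.9 in the C91A mutant and 6.99, 6.11 and 5.77 in its untreated line. The groups were well apart, with log2 fold changes of -1.67 (SE 0.1, adjusted p = 1.6e-18) in KO and -1.39 (SE 0.11, adjusted p = 4.3e-14) in the C91A mutant. Dmc1 had 4.8, 5.7 and 4.49 nRPKM in KO and 13.3, 12.8 and 13.2 in its untreated line, and 5.85, 5.45 and 5.44 in the C91A mutant and 11, 11 and 12.1 in its untreated line. It fell by 1.43 (SE 0.09) in KO and by 1.02 (SE 0.08) in the C91A mutant. Mei1 had 0.166, 0.298 and 0.173 nRPKM in KO and 0.34, 0.476 and 0.258 in its untreated line, and 0.0858, 0.111 and 0.0784 in the C91A mutant and 0.208, 0.2 and 0.24 in its untreated line. The KO ranges met, and that call (-0.86, SE 0.3, adjusted p = 0.014) was lost without KO libraries 1 (adjusted p = 0.062) or 3 (adjusted p = 0.099) or untreated library 2 (adjusted p = 0.12), and at equal depth (adjusted p = 0.089). In the C91A mutant the ranges were apart (-1.21, SE 0.37, adjusted p = 0.0054), and the call was lost at equal depth (adjusted p = 0.16). Tex11 and Tex15 fell by 0.92 (SE 0.18) and 1.11 (SE 0.1) in KO and by 0.8 (SE 0.21) and 0.67 (SE 0.09) in the C91A mutant.

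Of the 9 piRNA pathway and germ granule genes, 6 fell in each allele, where 30.3% of all genes were lower in KO and 26.4% in the C91A mutant. Piwil2 had 2.72, 2.74 and 2.66 nRPKM in KO and 8.5, 8.65 and 8.91 in its untreated line, and 2.42, 2.36 and 2.37 in the C91A mutant and 4.78, 5.65 and 5.43 in its untreated line. The 2 treated groups ended near the same level from unequal starting ones, with log2 fold changes of -1.69 (SE 0.07, adjusted p = 5e-23) in KO and -1.15 (SE 0.07, adjusted p = 3.5e-17) in the C91A mutant. Mov10l1 had 1.38, 1.67 and 1.87 nRPKM in KO and 4.04, 4.75 and 4.59 in its untreated line, and 1.85, 1.81 and 1.9 in the C91A mutant and 2.61, 2.61 and 2.6 in its untreated line. It fell by 1.43 (SE 0.11) in KO and by 0.49 (SE 0.11) in the C91A mutant. Ddx4 fell by 0.75 (SE 0.06) in KO and by 0.44 (SE 0.07) in the C91A mutant, and Tdrkh by 0.8 (SE 0.16) in KO and by 0.92 (SE 0.17) in the C91A mutant. Tdrd1 fell by 0.92 (SE 0.19) in KO and by 0.45 (SE 0.17, adjusted p = 0.026) in the C91A mutant, where the call was lost without mutant library 3 (adjusted p = 0.12) or untreated library 2 (adjusted p = 0.11). Mael fell by 0.38 (SE 0.1) in KO, to 6.8, 6.19 and 5.76 nRPKM, against 7.79, 7.81 and 8.5 in its untreated line, and this call was lost at equal depth (adjusted p = 0.09). Rnf17 fell by 0.3 (SE 0.06) in the C91A mutant. Asz1 and Tdrd9 had at most 5 reads in any KO or C91A mutant library, too few to read a change.

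Among the other testis genes 4 of 5 fell in each allele, where 30.3% of all genes were lower in KO and 26.4% in the C91A mutant. Here lay the largest falls of the set. Adad2 had 0.433, 0.254 and 0.261 nRPKM in KO and 2.73, 3.71 and 3.74 in its untreated line, and 0.638, 0.685 and 0.605 in the C91A mutant and 2.99, 3.48 and 3.51 in its untreated line. Treated libraries were far below untreated ones in both lines, by -3.42 (SE 0.23, adjusted p = 2.5e-16) in KO and -2.37 (SE 0.19, adjusted p = 2.2e-14) in the C91A mutant on the log2 scale. Tex101 had 0.247, 0.0 and 0.331 nRPKM in KO and 1.24, 1.19 and 0.962 in its untreated line, and 0.256, 0.311 and 0.401 in the C91A mutant and 1.36, 1.51 and 1.31 in its untreated line. Its log2 fold changes were -2.27 (SE 0.48) in KO, which became -2.91 without KO library 3, and -2.07 (SE 0.39) in the C91A mutant. Tex14 fell by 0.61 (SE 0.07) in KO and 0.73 (SE 0.07) in the C91A mutant. Slc25a31 fell by 0.91 (SE 0.29, adjusted p = 0.0056) in KO, a call lost without KO library 3 (adjusted p = 0.058). Tex13b had 3.41, 3.14 and 3.11 nRPKM in KO and 3.05, 2.99 and 2.71 in its untreated line, and 0.606, 0.526 and 0.574 in the C91A mutant and 0.926, 0.851 and 1.07 in its untreated line. It was not called in KO (0.13, SE 0.14, adjusted p = 0.45) and fell in the C91A mutant by 0.71 (SE 0.24, adjusted p = 0.012), a call lost without untreated library 3 (adjusted p = 0.05).

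The alleles differed in size of effect for a minority of genes. Testing the KO effect minus the C91A effect, 9 of 37 genes were more lowered or less raised in KO and 2 went the other way, where 13.8% of all genes were called on the lower and 12.2% on the higher side. The median difference was -0.29 over the 37 genes and -0.011 over all genes. Stra8 (-1.28, SE 0.22, adjusted p = 1.5e-05) and Mov10l1 (-0.94, SE 0.16, adjusted p = 1.5e-05) differed clearly. The untreated lines started at unequal levels, which enter these differences. Mov10l1 averaged 4.46 nRPKM in the untreated knockout line and 2.61 in the untreated C91A line, and ended at 1.64 in KO and 1.85 in the C91A mutant. Stra8 went from 4.8 to 1.91 nRPKM in KO, and from 3.2 to 3.07 in the C91A mutant. Adad2 differed by -1.05 (SE 0.36, adjusted p = 0.026), a call lost without KO libraries 2 (adjusted p = 0.058) or 3 (adjusted p = 0.15) or C91A mutant library 2 (adjusted p = 0.058). Piwil2 differed by -0.54 (SE 0.1, adjusted p = 0.00011), Meioc by -0.55 (SE 0.15, adjusted p = 0.0045) and Ddx4 by -0.31 (SE 0.09, adjusted p = 0.012). Rec8, called higher in the C91A mutant and not in KO, differed by -0.45 (SE 0.09, adjusted p = 8e-05). Tex15 and Dmc1 on the lower side, and Tex13b and Rnf17 on the higher side, lost their calls in some of the fits without 1 library.

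The untreated lines themselves differed from WT in germline genes. In the untreated knockout line 16 of 37 were higher and 6 lower than in WT, where 18.5% of all genes were called higher and 20.8% lower, and the median log2 difference was 0.25. In the untreated C91A line 4 were higher and 17 lower, where 13.4% of all genes were called higher and 14.2% lower, and the median was -0.25. The count of 17 was 11 without C91A line library 1 or WT library 1. Both comparisons share the WT libraries. Of the 11 primitive endoderm markers tested, 11 were lower than in WT in the untreated knockout line and 10 in the untreated C91A line, with 0 higher in either. Of the 10 pluripotency markers, 6 were higher and 2 lower in the untreated knockout line, and 4 and 1 in the untreated C91A line. The part of these marker differences in the germline differences was not tested. Tex13b averaged 2.92 nRPKM in the untreated knockout line and 0.949 in the untreated C91A line, against 0.573 in WT. The first difference was 2.32 on the log2 scale (SE 0.18, adjusted p = 2.6e-14), and the second, 0.67 (SE 0.23, adjusted p = 0.022), was lost without C91A line library 3 (adjusted p = 0.092) or WT library 1 (adjusted p = 0.17). Hormad1 had 6.06, 6.22 and 4.86 nRPKM in the untreated knockout line and 2.33, 1.12 and 1.63 in the untreated C91A line, against 1.76, 1.36 and 1.14 in WT, a log2 difference of 2.02 (SE 0.16) for the knockout line. In KO cells Hormad1 was not called against that line (-0.11, adjusted p = 0.5), so the high level stood in the untreated knockout line, KO and dKO. Smc1b (1.32, SE 0.11), Stag3 (1.13, SE 0.05), Sohlh2 (0.86, SE 0.09), Tex14 (0.86, SE 0.07) and Stra8 (0.72, SE 0.12) were also higher in the untreated knockout line than in WT. In the untreated C91A line, Tex11 (-1.03, SE 0.16), Ddx4 (-0.82, SE 0.06), Tdrd1 (-0.76, SE 0.14) and Zcwpw1 (-0.75, SE 0.09) were lower than in WT. Asz1 had 8, 5 and 2 reads in the untreated knockout line and 1, 0 and 1 in WT, a depth-scaled ratio of 7.29 (95% exact counting interval 1.7 to 65.7).

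Germline genes outside the 39 were counted from lists written with earlier results of these data known. The counts stand beside all-gene shares of 32.6% higher and 30.6% lower in dKO than in KO, 31.3% higher and 30.3% lower in KO, and 28.6% higher and 26.4% lower in the C91A mutant, and a count near them is no result about a list. Of 32 tested genes in a list of other meiosis genes, 19 were higher and 3 lower in dKO than in KO, 19 were lower and 1 higher in KO than in its untreated line, and 22 were lower and 1 higher in the C91A mutant than in its untreated line. Hormad2, a relative of Hormad1, averaged 2.01 nRPKM in dKO and 0.15 in KO, against 1.22 in WT, a log2 fold change of 3.71 over KO. Tex12, a central element protein, had 51 reads in dKO and 0 in KO, which is at least 11.2-fold higher in dKO against a floor of 3 counts over the KO group. Like Asz1, Tex12 passed the filter only through the dKO libraries and so had to differ. How many other genes of these lists passed only that way was not counted. Of 16 tested piRNA and germ granule genes outside the set, 12 were higher and 2 lower in dKO than in KO, among them Piwil1 and Gtsf1, by 2.94 and 2.7 on the log2 scale. Of the 6 oocyte genes tested, 4 were higher in dKO than in KO and 5 lower in KO than in its untreated line. Khdc3 averaged 2.52 nRPKM in dKO and 0.375 in KO, against 1.53 in the untreated knockout line and 3.14 in WT. Zp3 and Tle6 fell by 2.34 and 2.32 on the log2 scale in KO. Only 4 of 15 spermatid genes could be tested, 1 of which, Ldhc, was higher in dKO than in KO. Of 11 primordial germ cell genes, 5 were higher and 2 lower in dKO than in KO, a higher share not far above that of all genes. Set against WT, 14 of the other meiosis genes were higher in dKO and 5 lower, and of the piRNA list 7 and 4. The counts were 1 and 1 for oocyte genes, 5 and 6 for primordial germ cell genes, and 0 and 1 for spermatid genes. Over all genes tested, 26.2% were higher and 27.1% lower in dKO than in WT. Rhox5 averaged 141 nRPKM in dKO and 30.6 in KO, and was as high as 228 nRPKM in the C91A mutant and 219 in its untreated line. Markers of Sertoli and gonadal cells summed to 4.36 to 7.26 nRPKM over all libraries, and Fshr and Cyp17a1 were under 0.1 nRPKM in every group. Of the 8 tested, 2 were higher in dKO than in KO, Sox9 (0.93) and Wt1 (0.93), and 1 was lower, Amh (-1.25). Against WT, 3 were higher in dKO and 2 lower.

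Among the 16 PRC1.6 subunits, 2 were higher and 8 lower in dKO than in KO, and 6 were higher and 3 lower in KO than in its untreated line. Over all genes, 32.6% were higher and 30.6% lower in dKO than in KO, and 31.3% higher and 30.3% lower in KO, so nothing is read from these small counts about the complex as a group. Apart from the targeted Rnf2 (-0.73, SE 0.06), the lower ones in dKO were Cbx3 (-0.8, SE 0.16), Tfdp2 (-0.71, SE 0.06), Max (-0.34, SE 0.05), Yaf2 (-0.31, SE 0.11), Hdac2 (-0.13), Cbx1 (-0.11) and Wdr5 (-0.1), and the higher ones L3mbtl2 (0.38, SE 0.05) and E2f6 (0.31, SE 0.08). Cbx3 has near-identical copies in the genome that can take its uniquely aligned reads, so its value is uncertain. L3mbtl2 averaged 44.1 ± 2.81 nRPKM in dKO and 33.8 ± 0.78 in KO (SD, n = 3 each), against 47.2 ± 1.02 in the untreated knockout line. Pcgf6, which defines the complex, averaged 22.8 ± 0.211 nRPKM in dKO and 22.1 ± 1.15 in KO (SD, n = 3 each), against 28.3 ± 0.595 in the untreated knockout line, and was lower in KO than in that line by a log2 value of -0.38. Max averaged 30.4 nRPKM in dKO and 38.5 in KO, against 32.0 in the untreated knockout line. In the C91A mutant 3 subunits were higher and 6 lower than in its untreated line, where 28.6% of all genes were higher and 26.4% lower.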

How the data were processed

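Polyadenylated RNA of 18 mouse embryonic stem cell libraries was sequenced as single reads of 50 bases, per the labels' protocols. Per the submitters' processing notes GSNAP, whose version they do not state, placed the reads on GRCm38. The authors deposited, per gene, the count of uniquely aligned reads and an RPKM scaled by their size factors (nRPKM), which differed from TMM scaling by at most 0.017 on the log2 scale. Strand use in counting is not given. Groups came from the source names in the labels, and replicate numbers only follow accession order. Of 36528 genes, the RefSeq table (GRCm38.p6) named 31049 and GENCODE another 78; the 5401 unnamed ones held at most 2.11% of counts. No replicate pair was alike within sampling noise (chi-square per degree of freedom 1.769 to 5.782).

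Deposited counts were filtered with filterByExpr, scaled by TMM and tested with edgeR 4.0.16 (limma 3.58.1, R 4.3.3) by its quasi-likelihood test, with 1 mean per group over all 18 libraries, Benjamini-Hochberg adjustment over 16875 genes and 7 comparisons; the procedure was tested on simulated data. SE is the log2 fold change over the square root of F. The members and lists were chosen with earlier results of these data known. Library values are given for members called and changed at least 2-fold, up to the 8 largest in each of 4 comparisons, 19 in all; other genes named with library values were chosen after their values were seen. Counting intervals are exact at 95% and cover counting error only. Promoter windows are RefSeq's on GRCm38.p6; 6 members had none. Alternatives were DESeq2 1.42.0, other size factors, no filter, equal depth, only the groups compared, and leaving out each library.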

Additional observations from a re-analysis of the deposited data

Results flagged for a closer look

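For 11 germline genes the effect of the BAP1 knockout and that of the C91A mutation, each against its untreated line, differed by the test of the difference itself (edgeR, all values log2, KO effect minus C91A effect). The difference was -1.28 for Stra8, -0.94 for Mov10l1, -0.54 for Piwil2, -0.55 for Meioc, -0.45 for Rec8 and -0.31 for Ddx4. The untreated lines started at unequal levels for Stra8, Mov10l1 and Piwil2, which enter these values. Adad2 differed by -1.05, Tex15 by -0.44 and Dmc1 by -0.41, and each of these lost its call without 1 or more of the libraries: Adad2 without KO library 3 (adjusted p = 0.15), KO library 2 or C91A mutant library 2 (adjusted p = 0.058 each), Tex15 without KO library 3 (adjusted p = 0.066) or C91A mutant library 1 (adjusted p = 0.055), and Dmc1 without KO library 3 (adjusted p = 0.081). Tex13b differed the other way, by 0.84, and lost its call without C91A mutant library 2 (adjusted p = 0.061) or untreated C91A library 3 (adjusted p = 0.07). Rnf17 differed by 0.24, a call lost in 7 of the 12 fits that left out 1 library (adjusted p of 0.063 to 0.13 in those). Zcwpw1 passed only without C91A mutant library 3 (-0.44, adjusted p = 0.036), and Hormad1 only without untreated C91A library 2 (0.73, adjusted p = 0.029). Among the 11, Stra8 moved in the KO (-1.36) and was not called in the C91A mutant (-0.08), and Rec8 rose in the C91A mutant (0.57) and was not called in the KO (0.12). No germline gene beyond these passed that test with all libraries. The groups hold 3 libraries each, too few for a search for stray libraries.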

How the results depend on the processing

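Of the recomputed log2 fold changes of single members, 3166 stayed on their side of the threshold, 50 of them, called under neither setting, with a changed sign, 119 kept the direction and lost the call, 21 kept it and gained one, and no called value changed sign. With each library left out in turn, the genes higher in dKO than in KO numbered 34 in every fit, those higher in dKO than in WT 29 to 30, those lower in KO 22 to 26 and those lower in the C91A mutant 21 to 24. The genes lower in dKO than in KO numbered 2 in place of 1 with no filter on low counts and with only the groups compared, and 1 to 2 with a library left out, the second gene being Sycp3. The genes with a higher KO than C91A effect numbered 1 in place of 2 at equal depth and 0 to 2 with a library left out; 0 came without C91A mutant library 2 or untreated C91A library 3. The genes lower in the untreated C91A line than in WT numbered 11 to 17 with a library left out. The cause of these shifts was not tested. No paired analysis was possible because replicate numbers follow accession order only and pair no libraries. Depth limits Asz1, Tdrd9, Figla, Sycp2, Tex101 and Mei1, whose calls against KO or untreated lines rest on few reads, and Spo11 and Meiob, which could not be tested. Syce3 and Adad2 were also scarcely read in KO, with summed reads of 16 and 23, so the size of their changes there is uncertain.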
